A study of Saccharomyces cerevisiae S288C with 24 samples.

Results

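The isobutanol response of tryptophan-fed Sc12, a budding yeast strain that lacks TRP5 and therefore cannot finish tryptophan synthesis, was measured by RNA sequencing in 6 of the 24 libraries of the series. The 3 Sc12+Trp+IB libraries came from Sc12 grown with 200 µg/ml tryptophan and 1.2% isobutanol, and the 3 Sc12+Trp libraries from the same strain grown with tryptophan alone. Sc12 was taken from the yeast deletion collection, whose parent is the haploid laboratory strain BY4741 (MATa), so the result describes 1 deletion strain. All cultures were grown for 24 h in YPD, a rich medium that itself holds tryptophan. The other 18 libraries were WT (BY4741) with and without each supplement (12 libraries) and Sc12 without tryptophan, with and without isobutanol (6 libraries). The members were all 6346 of the 6905 loci with an estimate, of 6929 deposited, whose mean over the 24 libraries was at least 1 FPKM (fragments per kilobase of transcript and 1000000 mapped fragments).

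Tryptophan is made from chorismate by the TRP enzymes, of which Trp5, tryptophan synthase, catalyses the last step. A cell without it takes up tryptophan through the permeases Tat1 and Tat2. Tryptophan that is not built into protein can be opened by Bna2 and degraded through kynurenine to quinolinate, from which NAD is made, or it can be turned by the Ehrlich pathway into the alcohol tryptophol. Isobutanol is the Ehrlich product of valine. At high concentration such alcohols disturb membranes and the uptake of nutrients.

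The 3 Sc12+Trp+IB libraries held 9133262 to 10338056 fragments and the 3 Sc12+Trp libraries 6933531 to 12049887, within the 5218712 to 14580261 of all 24. TRP5 had 18 fragments in all in the Sc12+Trp+IB libraries and 5 in the Sc12+Trp libraries, against 2921 to 8481 in each WT library. LEU2, URA3 and MET17, which BY4741 lacks, had 0 fragments in every library. The labels mark Sc12+Trp replicate 1 and Sc12 replicate 3 as make-up data. Sc12+Trp+IB replicate 2 was at a distance of 23.6 and 20.5 from the other Sc12+Trp+IB libraries, against 15.3 between those 2. The distance of Sc12+Trp replicate 1 to the other Sc12+Trp libraries was 20.5 to 21.4, against 10.5 between those 2 and 57.9 to 61.3 between the groups, on the log2 level of all tested loci. The summed level of 7 a-specific mating genes was 332 to 361 CPM (fragments per 1000000, scaled between libraries) in Sc12+Trp+IB, against 750.1 to 877 CPM in Sc12+Trp. The summed level of 4 genes of the opposite mating type was 169 to 177 CPM in Sc12+Trp+IB, against 211 to 231 CPM in Sc12+Trp. Most of this sum was SAG1, with 4487 fragments in all in Sc12+Trp+IB and 6160 in Sc12+Trp, and MF(ALPHA)2 had 353 and 787. STE3 and MF(ALPHA)1 went the other way, with 507 and 175 fragments in Sc12+Trp+IB, against 310 and 85 in Sc12+Trp.

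A locus was called when its level differed by more than 1 on the log2 scale with an adjusted p below 0.05 (edgeR quasi-likelihood test, adjusted over all 6346 loci). With isobutanol 630 loci were higher (9.93% of those tested) and 509 lower (8.02%), and the median of all loci was 0.02. These shares are the background for the counts in gene lists below, and a count near them does not set a list apart. In RNA of a whole culture, fewer cells of a kind and less RNA per cell cannot be told apart. The change exceeded 2 on the log2 scale upward in 82 loci and downward in 54. The 3 Sc12+Trp+IB libraries did not overlap with the 3 Sc12+Trp libraries in 1123 of the 1139 called loci, against 4576 (72.1%) of all tested loci. With limma on log2(FPKM + 1) of the authors' values, 829 loci were called higher and 316 lower, the median of all loci was 0.22, and 520 and 267 of the calls above were among them. Changes are given as log2 fold changes throughout. Genes named as called that were not called on the FPKM scale are pointed out with their FPKM value. Among the largest rises by the naming rule were the kynurenine genes BNA6 and BNA1, the sporulation kinase gene SPS1, the citrate synthase gene CIT3 and AHA1, which encodes an activator of Hsp90. Among the largest falls by the same rule were LSR1, the U2 RNA of the spliceosome, FDH1, which encodes formate dehydrogenase, RPS12, a protein of the small ribosomal subunit, and AAD10, a putative aryl-alcohol dehydrogenase.

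The single locus with the largest rise by that rule was YLR162W (chrXII:489573-489929), a reading frame of unknown function next to the ribosomal DNA repeats, with 24.8, 17.3 and 22.5 CPM in Sc12+Trp+IB, against 1.79, 1.41 and 2.05 CPM in Sc12+Trp (log2 fold change 3.62 ± 0.27, adjusted p = 6.34e-11). ANS1, a putative cell surface protein, had 11.4, 15.8 and 15.2 CPM in Sc12+Trp+IB, against 1.66, 1.48 and 1.89 CPM in Sc12+Trp (log2 fold change 3.07 ± 0.23, adjusted p = 6.08e-11). YLR296W, YKL097C and YDR344C, all without a known function, rose by 2.82, 2.74 and 2.51. At the other end YDR261C-D, a Ty element reading frame with many near copies, had 2.06, 1.73 and 1.60 CPM in Sc12+Trp+IB, against 20.8, 25.6 and 22.2 CPM in Sc12+Trp (log2 fold change -3.67 ± 0.24, adjusted p = 1.15e-11). FDH1 had 36.5, 41.9 and 40.3 CPM in Sc12+Trp+IB, against 329.5, 375 and 304 CPM in Sc12+Trp (log2 fold change -3.09 ± 0.21, adjusted p = 1.76e-11), and AAD10 had 76.5, 59.5 and 69.5 CPM in Sc12+Trp+IB, against 448, 507 and 499 CPM in Sc12+Trp (log2 fold change -2.82 ± 0.11, adjusted p = 7.02e-15). Such loci were named only where the groups did not overlap. ERR3, an enolase-related gene with near-identical copies, fell by 2.78 and the small nucleolar RNA gene snR8 by 2.67.

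**Figure D1:**
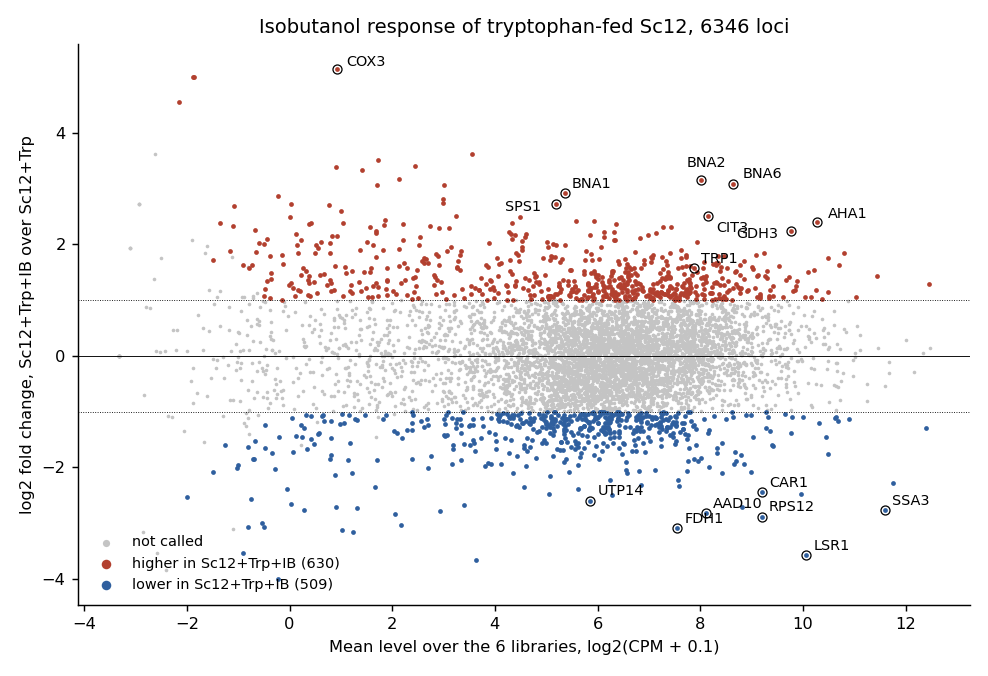
Log2 fold change of Sc12+Trp+IB over Sc12+Trp (vertical axis) against the mean level in the 6 libraries, log2(CPM + 0.1) (horizontal axis), for 6346 loci. Red points are the 630 loci called higher, blue points the 509 called lower and grey points the rest, and the dotted lines mark a change of 1. Named points are circled, among them BNA6 at 3.09 and LSR1 at -3.58.

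Genes of the kynurenine pathway stood among the largest rises, and 6 of the 15 listed genes of this pathway and of NAD synthesis were called higher and 1 lower (list median 0.52, against 0.02 over all loci). BNA2/YJR079W (chrX:578860-581616), a locus that merges BNA2 with a dubious reading frame and overlaps AIM24, had 476, 424 and 497 CPM in Sc12+Trp+IB, against 54.8, 50.4 and 51.4 CPM in Sc12+Trp (log2 fold change 3.16 ± 0.10, adjusted p = 2.14e-16, with the standard error of the fit after ±). Bna2, tryptophan 2,3-dioxygenase, opens the pathway. BNA7, whose product removes the formyl group in the next step, had 37.1, 41.9 and 37.7 CPM in Sc12+Trp+IB, against 26.9, 27.1 and 27.5 CPM in Sc12+Trp, a difference of 0.52 that did not reach the fold threshold. BNA4 (chrII:39145-40527), encoding kynurenine 3-monooxygenase, had 138, 137 and 135 CPM in Sc12+Trp+IB, against 26.9, 26.5 and 26.6 CPM in Sc12+Trp (log2 fold change 2.36 ± 0.12, adjusted p = 2.08e-13). BNA5, encoding kynureninase and overlapping YLR232W, had 167, 155 and 176 CPM in Sc12+Trp+IB, against 42.6, 46.0 and 47.5 CPM in Sc12+Trp (log2 fold change 1.87 ± 0.09, adjusted p = 2.4e-13). None of these 4 genes overlapped between the groups, and neither did 72.1% of all tested loci.

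The steps that make quinolinate and use it rose as well. BNA1 (chrX:471138-471671), which encodes 3-hydroxyanthranilate dioxygenase, had 71.5, 72.9 and 72.3 CPM in Sc12+Trp+IB, against 9.06, 8.96 and 10.5 CPM in Sc12+Trp (log2 fold change 2.92 ± 0.18, adjusted p = 5.22e-12). BNA6 (chrVI:244279-245166), encoding the quinolinate phosphoribosyltransferase that joins this branch to NAD, had 817, 570.3 and 759 CPM in Sc12+Trp+IB, against 72.6, 92.9 and 86.1 CPM in Sc12+Trp (log2 fold change 3.09 ± 0.14, adjusted p = 2.44e-14). In both genes each Sc12+Trp+IB library was more than 6 times the highest Sc12+Trp library. BNA3 moved the other way. It encodes a kynurenine aminotransferase that draws kynurenine off the route, and it had 30.6, 36.6 and 34.1 CPM in Sc12+Trp+IB, against 74.8, 74.8 and 75.5 CPM in Sc12+Trp (log2 fold change -1.15 ± 0.15, adjusted p = 3.53e-07, -0.59 and not called on FPKM). NRK1, the nicotinamide riboside kinase of the salvage route, had 21.7, 21.5 and 20.9 CPM in Sc12+Trp+IB, against 6.51, 12.0 and 11.9 CPM in Sc12+Trp (log2 fold change 1.04 ± 0.16, adjusted p = 4.82e-06), and 0.84 without Sc12+Trp replicate 1. The genes of the steps that follow quinolinate or recycle nicotinamide were not called: the difference was 0.34 for NMA1 and 0.45 for NMA2/YGR011W, which encode enzymes that add the adenylyl group, 0.81 for QNS1 (NAD synthetase), 0.46 for NPT1, -0.48 for PNC1 (nicotinamidase) and 0.34 for TNA1, the nicotinic acid permease. HST1, which encodes an NAD-dependent deacetylase that represses BNA genes, was also below the threshold at -0.62. On FPKM QNS1 passed the threshold and was called higher, at 1.07.

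**Figure D2:**
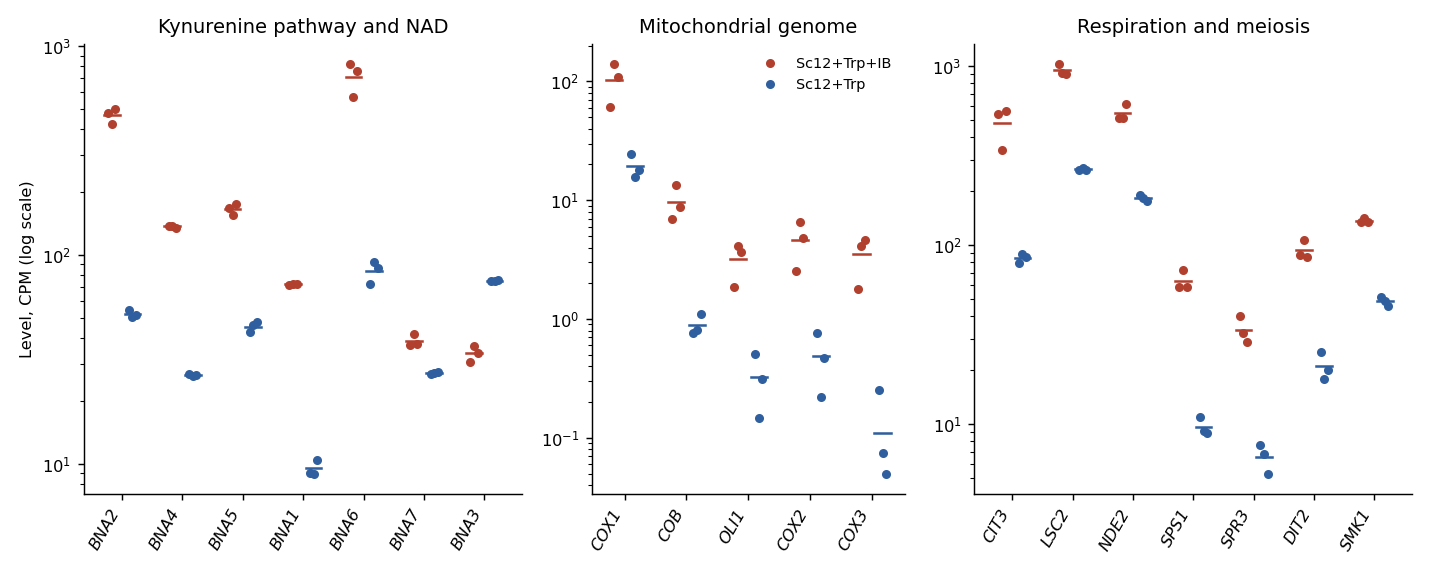
Level in each library (CPM, log scale) of 19 loci in 3 panels, kynurenine pathway genes, protein genes of the mitochondrial genome, and genes of respiration and meiosis. Red points are the 3 Sc12+Trp+IB libraries, blue points the 3 Sc12+Trp libraries, and the lines are group means. The Sc12+Trp library with 0 COX3 fragments is drawn at 0.05. The groups do not overlap in any of the 19 loci, nor in 72.1% of all tested loci. For BNA1, BNA6, CIT3 and SPS1 the naming rule required this. BNA3 is the only one of the 19 that is lower in Sc12+Trp+IB.

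Hst1 acts with the DNA-binding protein Sum1, whose site in promoters of middle sporulation genes is also read by the activator Ndt80. The letters GNCACAAA, a core of that site, were searched on both strands of the 300 bases before the start codon, and were chosen after the changes of the BNA and sporulation genes had been seen. The sites below, with the 8 letters in capitals and 11 bases on each side, show the same core in front of a kynurenine gene and of 2 sporulation genes that rose. They were read from RefSeq R64 (sacCer3), 5′ to 3′ on the strand that holds the core.
BNA1, chrX:471800-471829, plus strand, 147 bases before the start codon: atcctgacgccGTCACAAAggcagccattc
SPR3, chrVII:607262-607291, plus strand, 290 bases before: gttttgttagcGACACAAAagagacctcga
SMK1, chrXVI:666190-666219, minus strand, 79 bases before: actgttcaagtGTCACAAAttagtggcgcc
The core stood in 237 of 5723 promoters (4.14%), in 7.03% of those of called higher loci and in 5.12% of those of called lower loci. It was found in 1 of 13 kynurenine and NAD promoters and in 5 of 21 meiosis promoters. The sites shown are the only ones in front of called genes of both lists. SPS1, DIT2, BNA4, BNA5 and BNA6, which also rose, had none, and the merged BNA2 locus was not searched. Whether Sum1 or Ndt80 acts on these genes here was not tested.

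Transcripts of the mitochondrial genome were measured at higher levels with isobutanol, the protein-coding ones other than COX1 on few fragments. Yeast mitochondrial mRNAs carry no poly(A) tail, and the library kit selects poly(A) RNA, so their fragments come from what passed that selection. The COX1 locus, which holds subunit 1 of cytochrome c oxidase and its intron reading frames, had 654, 1445 and 1148 fragments in Sc12+Trp+IB, against 192, 213 and 229 in Sc12+Trp, a ratio of 5.50 (95% exact counting interval 5.05 to 5.99) per scaled library. COB, which encodes cytochrome b, had 74, 141 and 93 fragments in Sc12+Trp+IB, against 6, 11 and 14 in Sc12+Trp, a ratio of 10.7 (7.36 to 16.0). OLI1, for subunit 9 of the ATP synthase, had 20, 43 and 39 fragments in Sc12+Trp+IB, against 4, 2 and 4 in Sc12+Trp (ratio 10.9, 5.72 to 23.5). Replicate 1 was the lowest of the treated libraries in all 3 genes.

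COX2 and COX3 encode the other mitochondrial subunits of the oxidase. COX2 had 27, 68 and 51 fragments in Sc12+Trp+IB, against 6, 3 and 6 in Sc12+Trp (ratio 10.4, 6.13 to 19.1). COX3 had 111 fragments in all in Sc12+Trp+IB and 3 in Sc12+Trp, a ratio of 39.7 whose counting interval ran from 13.2 to 195. Of the 3 listed protein genes that did not pass the filter on low values, ATP6 had 14, 15 and 15 fragments in Sc12+Trp+IB, against 2, 2 and 3 in Sc12+Trp, VAR1 had 1, 1 and 0 in Sc12+Trp+IB, against 0 in each Sc12+Trp library, and ATP8 had 0 in all 6 libraries. The mitochondrial ribosomal RNAs were also higher. 15S_RRNA had 331, 1276 and 932 fragments in Sc12+Trp+IB, against 177, 91 and 214 in Sc12+Trp (log2 fold change 2.43, adjusted p = 3.8e-05, and 2.01 and not called on FPKM). 21S_RRNA had 109, 360.2 and 266 CPM in Sc12+Trp+IB, against 102, 51.3 and 75.1 CPM in Sc12+Trp (log2 fold change 1.70). The treated libraries differed from each other by up to 4 times in these RNAs. The counting intervals cover counting error only. How the poly(A) selection bears on these values was not tested. Among other RNAs without a long tail, 14 of 72 small nucleolar RNAs were called higher and 8 lower (median 0.01), and 0 of 5 spliceosomal RNAs were higher and 3 lower (range -3.58 to 1.76).

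Nuclear genes of respiration were higher in part. Of 15 genes of the mitochondrial citric acid cycle, 4 were called higher and none lower (median 0.41). CIT3, a mitochondrial citrate and methylcitrate synthase, had 542, 338 and 562 CPM in Sc12+Trp+IB, against 78.9, 89.0 and 85.1 CPM in Sc12+Trp (log2 fold change 2.51 ± 0.16, adjusted p = 8.12e-12). LSC2, a subunit of succinyl-CoA ligase, had 1021, 914 and 908 CPM in Sc12+Trp+IB, against 261, 269.7 and 262 CPM in Sc12+Trp (log2 fold change 1.84 ± 0.09, adjusted p = 1.91e-13). Its partner LSC1 was called at 1.04 and SDH4, a membrane anchor of succinate dehydrogenase, at 1.02. Both stood near the threshold. SDH4 was at 0.93 without Sc12+Trp replicate 1 and at 0.97 without Sc12+Trp+IB replicate 1, and under library totals LSC1 was at 0.98. On FPKM SDH4 was at 0.89. The first enzymes of the cycle were not called, with differences of -0.31 for CIT1 and -0.70 for ACO1.

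Of 38 nuclear genes of oxidative phosphorylation, 7 were higher and 2 lower (median 0.35). NDE2, the NADH dehydrogenase of the outer face of the inner membrane, had 515, 514 and 614 CPM in Sc12+Trp+IB, against 189.9, 183 and 175 CPM in Sc12+Trp (log2 fold change 1.59 ± 0.13, adjusted p = 5.81e-10). COX4 of cytochrome oxidase (1.16), QCR9 of the bc1 complex (1.15) and ATP4, ATP7, ATP15 and ATP17 of the ATP synthase (1.11, 1.10, 1.03 and 1.07) were the other called rises. Without Sc12+Trp replicate 1 QCR9 was at 0.98 and ATP15 at 0.89, and on FPKM ATP15 was at 0.47. CYC7, the form of cytochrome c made when oxygen is low, fell by 1.38 on the log2 scale, and ATP18, a small subunit of the ATP synthase, by 1.31. Gluconeogenesis and acetate use gave 3 higher and none lower of 17 genes (median 0.48). PCK1, which encodes phosphoenolpyruvate carboxykinase, had 2515, 1898 and 2247 CPM in Sc12+Trp+IB, against 488, 765 and 723 CPM in Sc12+Trp (log2 fold change 1.75 ± 0.15, adjusted p = 8.67e-10). IDP2, for the cytosolic isocitrate dehydrogenase that makes NADPH, had 801, 752 and 776 CPM in Sc12+Trp+IB, against 251, 267 and 249 CPM in Sc12+Trp (log2 fold change 1.60 ± 0.13, adjusted p = 1.69e-10), and CRC1, the carnitine carrier of mitochondria, rose by 1.66. The glyoxylate cycle genes ICL1 and MLS1 were at -0.41 and -0.47 and were not called.

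Haploid cells do not normally sporulate. Of the 21 listed genes of meiosis and sporulation, 5 were called higher and none lower (median 0.49). SPS1, a kinase that shapes the spore membrane, had 58.4, 72.7 and 58.4 CPM in Sc12+Trp+IB, against 11.0, 9.11 and 8.89 CPM in Sc12+Trp (log2 fold change 2.72 ± 0.16, adjusted p = 1.42e-12). SPR3, a septin of sporulation, had 40.0, 32.3 and 28.7 CPM in Sc12+Trp+IB, against 7.66, 6.74 and 5.27 CPM in Sc12+Trp (log2 fold change 2.38 ± 0.19, adjusted p = 2.22e-10), and SMK1, a MAP kinase of spore wall assembly, had 134, 142 and 134 CPM in Sc12+Trp+IB, against 51.3, 48.6 and 45.3 CPM in Sc12+Trp (log2 fold change 1.50 ± 0.12, adjusted p = 3.15e-10). DIT2, which makes the dityrosine of the spore wall and overlaps YDR401W, had 88.2, 107 and 85.8 CPM in Sc12+Trp+IB, against 25.3, 17.8 and 20.0 CPM in Sc12+Trp (log2 fold change 2.17 ± 0.15, adjusted p = 2.11e-11). The groups did not overlap in any of these 4, nor in 72.1% of all tested loci, and the rule that named SPS1 required it. IME1, the master activator of entry into meiosis, rose by 1.10 (0.96 without Sc12+Trp replicate 1), with IME2 and NDT80 of the next steps at 0.48 and 0.30 and not called. The recombination genes SPO11, HOP1 and RED1 were at -0.11, -0.66 and -0.54.

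Factors that build ribosomes were lower in part. Of 50 listed ribosome biogenesis genes, none were called higher and 10 lower (median -0.57). MAK5, a helicase of the large subunit precursor, had 13.8, 17.0 and 16.1 CPM in Sc12+Trp+IB, against 81.5, 83.4 and 81.6 CPM in Sc12+Trp (log2 fold change -2.39 ± 0.10, adjusted p = 1.09e-14). UTP14, a factor of the small subunit processome named for the size of its fall, had 14.2, 19.7 and 15.3 CPM in Sc12+Trp+IB, against 103, 99.0 and 96.4 CPM in Sc12+Trp (log2 fold change -2.60 ± 0.12, adjusted p = 5.77e-14), and RPA49, a subunit of RNA polymerase I, had 9.25, 13.5 and 7.53 CPM in Sc12+Trp+IB, against 52.6, 60.1 and 56.0 CPM in Sc12+Trp (log2 fold change -2.48 ± 0.13, adjusted p = 5.34e-13). NOP7, which matures the large subunit rRNA, had 25.7, 41.6 and 28.3 CPM in Sc12+Trp+IB, against 95.6, 108 and 109 CPM in Sc12+Trp (log2 fold change -1.71 ± 0.13, adjusted p = 1.27e-10). In all 4 the Sc12+Trp+IB libraries lay far below the Sc12+Trp libraries, and replicate 2 was the highest of the treated ones. NOP2 and UTP13 fell by 1.70 and 1.69.

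The ribosomal proteins themselves did not move as a group. Of 81 large subunit loci, 3 were higher and 5 lower (median -0.06), and of 56 small subunit loci 2 were higher and 6 lower (median 0.05). RPS12 had 112, 184 and 124 CPM in Sc12+Trp+IB, against 899.5, 1099 and 1098 CPM in Sc12+Trp (log2 fold change -2.88 ± 0.24, adjusted p = 3.26e-10). RPP0, the base of the ribosomal stalk, had 183, 204 and 185 CPM in Sc12+Trp+IB, against 643, 769.5 and 774 CPM in Sc12+Trp (log2 fold change -1.93 ± 0.18, adjusted p = 3.36e-09) and overlaps YLR339C. RPP2B of the same stalk had 173, 179 and 171 CPM in Sc12+Trp+IB, against 404, 566 and 572 CPM in Sc12+Trp (log2 fold change -1.56 ± 0.20, adjusted p = 3.6e-07). RPS28A and RPS28B, near-identical copies between which fragments are hard to divide, both fell, by 2.11 and 1.56. RPL10, which overlaps YLR076C, went the other way, with 503, 737 and 614 CPM in Sc12+Trp+IB, against 227, 212 and 207 CPM in Sc12+Trp (log2 fold change 1.52 ± 0.20, adjusted p = 5.06e-07). Of 20 aminoacyl-tRNA synthetases, ILS1 (isoleucine) and CRS1 (cysteine) fell by 1.20 and 1.06 and none rose (median -0.41). ILS1 overlaps YBL077W, and CRS1 was at -0.97 and not called on FPKM.

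**Figure D3:**
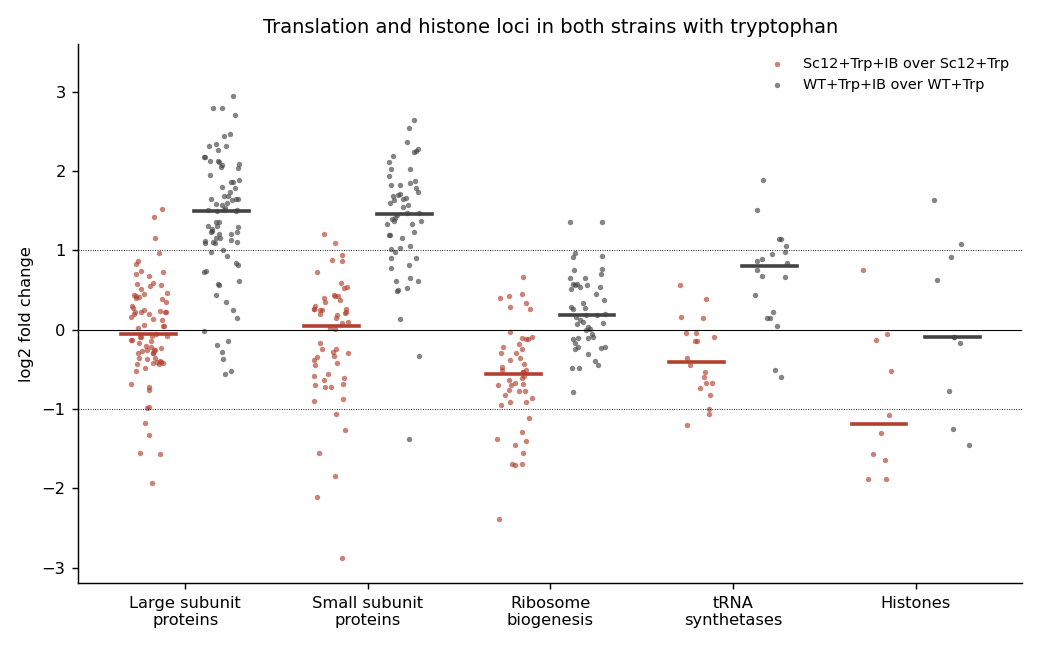
Log2 fold change with isobutanol of each locus in 5 lists, in Sc12+Trp+IB over Sc12+Trp (red) and WT+Trp+IB over WT+Trp (grey). Lines are list medians, and dotted lines mark a change of 1. Ribosomal protein loci lie around 0 in Sc12 (medians -0.06 and 0.05) and mostly above 1 in WT (medians 1.49 and 1.46).

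Promoters of ribosome biogenesis genes carry a pair of elements named PAC (GATGAG) and RRPE (AAATTTT), the PAC element being the site of the repressors Dot6 and Tod6. Both were searched on both strands of the 300 bases before the start codon, a search chosen after the fall of these genes had been seen. The stretches below are shown because their genes fell and their elements lie close together. They are 60 bases each from RefSeq R64, on the coding strand, with PAC and RRPE in either orientation in capitals, where a capital A that precedes AAATTTT belongs to the element on the other strand. The fall of NOG2 was at -0.94 and not called on FPKM.
NOP7, chrVII:695256-695315, plus strand, log2 fold change -1.71: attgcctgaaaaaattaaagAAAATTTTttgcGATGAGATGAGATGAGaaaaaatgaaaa
RRP5, chrXIII:731251-731310, minus strand, log2 fold change -1.46: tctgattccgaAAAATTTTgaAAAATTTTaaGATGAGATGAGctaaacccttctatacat
NOP2, chrXIV:510377-510436, plus strand, log2 fold change -1.70: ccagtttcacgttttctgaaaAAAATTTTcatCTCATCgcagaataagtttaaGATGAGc
NOG2, chrXIV:723256-723315, minus strand, log2 fold change -1.12: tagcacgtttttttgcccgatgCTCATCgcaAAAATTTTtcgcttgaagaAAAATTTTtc
Both elements stood in 43 of 49 promoters of the list and in 6 of the 9 whose genes fell. They stood together in 444 of all 5723 promoters (7.76%), in 15.3% of those of called lower loci and in 3.52% of those of called higher loci. Among loci called lower in WT+Trp+IB against WT+Trp the share was 3.76%, and in Sc12+IB against Sc12 12.1%.

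Most core histone genes fell. Of 10 histone genes, 6 were called lower and none higher (median -1.19), and all 6 belong to the replication-coupled H2A, H2B, H3 and H4 genes. HTB1 had 171, 179 and 176 CPM in Sc12+Trp+IB, against 542, 713 and 687 CPM in Sc12+Trp (log2 fold change -1.88 ± 0.11, adjusted p = 1.42e-12), and HHT1 had 102, 113 and 102 CPM in Sc12+Trp+IB, against 351, 416 and 396 CPM in Sc12+Trp (log2 fold change -1.88 ± 0.11, adjusted p = 9.22e-13). HTA1, HHF1, HHF2 and HHT2 fell by 1.65, 1.57, 1.30 and 1.08, with HHT2 at -0.99 without Sc12+Trp replicate 1. The second H2A and H2B genes, HTA2 and HTB2, were at -0.52 and -0.13, the variant HTZ1 at 0.75 and the linker histone HHO1 at -0.06, none of them called. The histone copies are alike in sequence, so the division of fragments between them is uncertain.

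Among 14 cyclins and their inhibitors the only call was CLB2, the main mitotic cyclin, with 5.05, 4.81 and 5.74 CPM in Sc12+Trp+IB, against 17.9, 13.7 and 15.4 CPM in Sc12+Trp (log2 fold change -1.58 ± 0.16, adjusted p = 1.36e-08, -1.07 and not called on FPKM). The G1 cyclins CLN1, CLN2 and CLN3 were at 0.47, 0.13 and 0.22. Genes expressed in daughter cells as they separate from the mother gave 4 higher and 1 lower of 11 (median 0.87). EGT2 had 127, 123 and 139 CPM in Sc12+Trp+IB, against 30.2, 30.5 and 30.8 CPM in Sc12+Trp (log2 fold change 2.09 ± 0.41, adjusted p = 0.000108). ASH1, which represses mating-type switching in daughters, rose by 1.28, DSE2 by 1.21 and DSE4 by 1.10. AMN1, an inhibitor of mitotic exit in daughters, was called at -1.07, but its adjusted p rose to between 0.0516 and 0.0791 when any of 5 of the 6 libraries was left out, and on FPKM it was not called (-1.08). CTS1, the chitinase of the septum, was not called at -0.43.

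In tryptophan synthesis itself, 2 of 11 genes of the shikimate and TRP steps were called higher and none lower (median 0.34). TRP1 (chrIV:461842-462602), encoding phosphoribosylanthranilate isomerase, had 366, 349 and 338 CPM in Sc12+Trp+IB, against 106, 127 and 121 CPM in Sc12+Trp (log2 fold change 1.57 ± 0.07, adjusted p = 7.95e-14). It overlaps YDR008C, a dubious reading frame on the other strand that had 37.8, 38.3 and 37.6 CPM in Sc12+Trp+IB, against 6.76, 7.41 and 5.98 CPM in Sc12+Trp (log2 fold change 2.49), and the counting is not stated to use strand. ARO4, the entry enzyme that tyrosine inhibits, was called at 1.04, and this call ended when Sc12+Trp replicate 1 (0.98) or Sc12+Trp+IB replicate 2 (0.83) was left out and on FPKM (0.93). TRP3 had 137, 139 and 151 CPM in Sc12+Trp+IB, against 85.5, 96.5 and 94.0 CPM in Sc12+Trp, a difference of 0.63, and TRP2 and TRP4 were at 0.34 and 0.00. TAT2, the high-affinity tryptophan permease, had 192, 190.1 and 180.2 CPM in Sc12+Trp+IB, against 81.5, 82.9 and 79.8 CPM in Sc12+Trp (log2 fold change 1.20 ± 0.08, adjusted p = 9.27e-12). Its relative TAT1 was at 0.44.

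Of 4 listed genes of aromatic amino acid catabolism through the Ehrlich pathway, 2 were called lower and none higher (median -1.01). ARO10, the decarboxylase of aromatic and branched-chain keto acids, had 58.6, 56.6 and 57.8 CPM in Sc12+Trp+IB, against 133, 140.4 and 145 CPM in Sc12+Trp (log2 fold change -1.28 ± 0.27, adjusted p = 0.000228). ARO9, the aromatic aminotransferase, had 352, 236 and 334 CPM in Sc12+Trp+IB, against 708, 602 and 619 CPM in Sc12+Trp (log2 fold change -1.07 ± 0.18, adjusted p = 1.56e-05), with an overlap with YHR137C-A and a value of -0.99 without Sc12+Trp replicate 1 and -0.91 without Sc12+Trp+IB replicate 2. PDC1, the main pyruvate decarboxylase, had 797, 681 and 838 CPM in Sc12+Trp+IB, against 1682, 1879 and 1761 CPM in Sc12+Trp (log2 fold change -1.20 ± 0.23, adjusted p = 9.52e-05), and its copies PDC5 and PDC6 were at -0.02 and 0.67. GCN4, the activator of amino acid synthesis, had 554, 481 and 543 CPM in Sc12+Trp+IB, against 1108, 1083 and 1059 CPM in Sc12+Trp (log2 fold change -1.04 ± 0.14, adjusted p = 7.33e-07), and -0.98 without Sc12+Trp+IB replicate 2. On FPKM none of these 4 genes was called, with ARO10 at -0.92, ARO9 at -0.90, PDC1 at -0.91 and GCN4 at -0.43.

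Other amino acid pathways split between their genes. In arginine synthesis 4 of 10 genes were called higher and none lower (median -0.04), with ARG3 at 1.32, ARG1 at 1.17, ARG7 at 1.14 and the mitochondrial ornithine carrier ORT1 at 1.06. ORT1 was 0.94 without Sc12+Trp replicate 1. Of the genes of arginine breakdown, CAR1, arginase, had 207, 144 and 199 CPM in Sc12+Trp+IB, against 990.3, 1038 and 971 CPM in Sc12+Trp (log2 fold change -2.45 ± 0.29, adjusted p = 9.68e-08). CAR2, which acts on the ornithine it yields, fell by 1.45 (-1.02 and not called on FPKM). In the related breakdown of proline, PUT1, the first enzyme, had 89.1, 64.9 and 92.4 CPM in Sc12+Trp+IB, against 326, 353 and 351 CPM in Sc12+Trp (log2 fold change -2.07 ± 0.21, adjusted p = 7.04e-09), while PUT2 was at 0.03.

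Among the other genes for use of poor nitrogen sources, MEP2, the high-affinity ammonium permease, had 319, 269 and 345 CPM in Sc12+Trp+IB, against 84.9, 84.0 and 82.7 CPM in Sc12+Trp (log2 fold change 1.89 ± 0.19, adjusted p = 6.21e-09), and DAL1, allantoinase, rose by 1.52. Over this list 2 of 24 genes were higher and 3 lower (8.33% and 12.5%, median 0.00), near the 9.93% and 8.02% of all tested loci. Lysine synthesis gave 1 higher and 2 lower of 9: LYS4, homoaconitase, had 192, 184 and 205 CPM in Sc12+Trp+IB, against 794, 824 and 840.1 CPM in Sc12+Trp (log2 fold change -2.08 ± 0.11, adjusted p = 4.74e-13), LYS1 fell by 1.62 and LYS21 rose by 1.10. Of 25 amino acid permeases and vacuolar transporters, 5 were higher and 2 lower. BAP3, a branched-chain amino acid permease, had 283, 295 and 337 CPM in Sc12+Trp+IB, against 87.8, 90.8 and 90.4 CPM in Sc12+Trp (log2 fold change 1.76 ± 0.11, adjusted p = 7.15e-12), and the vacuolar exporter AVT6 rose by 1.42. SAM3, the S-adenosylmethionine permease, fell by 1.35. The permease genes DIP5 and GNP1 were at -0.48 and 0.33, the vacuolar AVT7 at 0.95, glutamine synthetase GLN1 at 0.16 and the nitrogen regulator GLN3 at -0.05, none of them called. AVT7 was called higher on FPKM, at 1.10, and without Sc12+Trp+IB replicate 2, at 1.05.

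GDH3, a glutamate dehydrogenase that consumes NADPH, had 1543, 1289 and 1472 CPM in Sc12+Trp+IB, against 286, 319 and 301 CPM in Sc12+Trp (log2 fold change 2.25 ± 0.11, adjusted p = 2.52e-13) and was the only rise of the 16 genes of the aspartate family and glutamate. ILV6, the regulatory subunit of the first enzyme of valine and isoleucine synthesis, had 550.2, 487 and 573 CPM in Sc12+Trp+IB, against 188, 228 and 214 CPM in Sc12+Trp (log2 fold change 1.35 ± 0.11, adjusted p = 1.4e-10) and was the only call of 11 branched-chain genes. In serine, glycine and one-carbon metabolism 4 of 12 genes were higher and 1 lower (median 0.60), led by MTD1, a methylenetetrahydrofolate dehydrogenase that uses NAD, at 1.58, SER1 at 1.31 and GCV2 of the glycine cleavage complex at 1.27. Sulfur genes gave 3 higher and 1 lower of 24 (12.5% and 4.17%, against 9.93% and 8.02% of all tested loci). SSU1, the sulfite exporter, had 352, 228 and 278 CPM in Sc12+Trp+IB, against 54.6, 57.6 and 59.3 CPM in Sc12+Trp (log2 fold change 2.32 ± 0.17, adjusted p = 5.98e-11), and MET6, methionine synthase, fell by 1.13 (-0.51 and not called on FPKM). In purine synthesis, with 1 of 14 genes higher and 2 lower, IMD4, an IMP dehydrogenase that overlaps the RNA gene snR54, had 51.0, 53.3 and 56.8 CPM in Sc12+Trp+IB, against 234, 216 and 217 CPM in Sc12+Trp (log2 fold change -2.05 ± 0.15, adjusted p = 3.42e-11). GUA1 of the same branch to GMP fell by 1.29, and ADE8 rose by 1.18.

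Of the pentose phosphate pathway, which supplies NADPH and the ribose and erythrose phosphates of tryptophan synthesis, only the TKL2 locus was called among 19. YBR116C/TKL2, the minor transketolase, fell by 1.88. GND1 and RPE1 were at 0.40 and 0.61, TKL1 and TAL1 at 0.13 and -0.19, SOL2 and SOL3 at 0.21 and -0.10, PRS1, PRS3 and PRS4 at -0.45, 0.38 and -0.20, and PGM1 at -0.36. GND1 and RPE1 each overlap another locus.

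Chaperone genes were lower or not called, with 1 exception. Of 27 heat shock genes, 1 was higher and 6 lower (median -0.36). AHA1 had 2310, 1758 and 2161 CPM in Sc12+Trp+IB, against 372, 407 and 399.7 CPM in Sc12+Trp (log2 fold change 2.40 ± 0.15, adjusted p = 6.35e-12), while SSA3, an Hsp70 of stationary phase, had 1032, 534 and 801 CPM in Sc12+Trp+IB, against 5222, 5517 and 5343 CPM in Sc12+Trp (log2 fold change -2.76 ± 0.18, adjusted p = 1.18e-11). HSP104, the disaggregase, fell by 1.30, its mitochondrial relative HSP78 by 1.16, and the Hsp90 gene HSC82 by 1.11, with HSP82 at -0.29. HSC82 was at -0.91 without Sc12+Trp+IB replicate 2 and at -0.70 on FPKM. Replicate 2 was the lowest treated library for both AHA1 and SSA3.

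Sugar genes were mixed. Of the 18 hexose transporter and sensor genes that passed the filter of 19, 2 were higher and 6 lower (median -0.73). HXT2, a high-affinity carrier, had 205, 111 and 184 CPM in Sc12+Trp+IB, against 658, 628 and 625 CPM in Sc12+Trp (log2 fold change -1.93 ± 0.16, adjusted p = 2.98e-10), HXT4 fell by 1.39, HXT1 by 1.13 and HXT3 by 1.05. On FPKM HXT1 was at -0.93 and HXT3 at -0.90, and HXT3 was at -0.85 without Sc12+Trp+IB replicate 2. HXT10 and HXT14 rose by 1.72 and 1.41 from low levels, and HXT14 overlaps YNL319W. In glycolysis 3 of 17 genes were higher and 1 lower (median 0.05). TDH1, a glyceraldehyde phosphate dehydrogenase of stationary phase, had 2839, 2204 and 3323 CPM in Sc12+Trp+IB, against 683, 862 and 775 CPM in Sc12+Trp (log2 fold change 1.85 ± 0.28, adjusted p = 3.94e-06), whereas its paralog TDH2 fell by 1.36 (-0.84 on FPKM) and TDH3 was at -0.10. GLK1/YCL042W, a locus that holds glucokinase and overlaps PDI1, had 8485, 7120 and 8151 CPM in Sc12+Trp+IB, against 3296, 3318 and 3115 CPM in Sc12+Trp (log2 fold change 1.29 ± 0.12, adjusted p = 1.32e-09), and PGK1, which overlaps YCR013C, rose by 1.62. In glycogen and trehalose metabolism, GSY1, glycogen synthase, fell by 1.61 and NTH2, trehalase, rose by 1.44. GUT1, glycerol kinase, rose by 1.26.

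Mating genes of the a type were lower. Of 7 a-specific genes, 4 were called lower and none higher (median -1.09). STE2, the receptor of alpha factor, had 103, 105 and 98.9 CPM in Sc12+Trp+IB, against 305, 393 and 399.8 CPM in Sc12+Trp (log2 fold change -1.84 ± 0.11, adjusted p = 2.04e-12). AGA2, the agglutinin subunit, fell by 1.55, and BAR1, the protease that destroys alpha factor, by 1.09. MFA1, a precursor gene of a-factor, was called at -1.24, but at -0.72 with an adjusted p of 0.153 without Sc12+Trp replicate 1. Of 22 genes of the pheromone response, 3 were higher and 6 lower (median -0.20). PRM6, which overlaps YML047W-A, fell by 2.35, AGA1 by 1.51, SST2 by 1.31 and FUS1 by 1.27, while FUS3, the MAP kinase, had 201, 178 and 197 CPM in Sc12+Trp+IB, against 69.2, 88.9 and 77.6 CPM in Sc12+Trp (log2 fold change 1.29 ± 0.10, adjusted p = 9.78e-11) and PRM2 rose by 1.71. On FPKM the calls of AGA2 (-0.57), BAR1 (-0.94), MFA1 (-0.93), AGA1 (-0.52), SST2 (-0.78) and FUS1 (-0.94) were lost, and those of STE2 and PRM6 were kept.

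At the cell surface, SCW4, a glucanase of the wall, had 121, 113 and 124 CPM in Sc12+Trp+IB, against 943, 709 and 677 CPM in Sc12+Trp (log2 fold change -2.70 ± 0.21, adjusted p = 1.68e-10), and among 20 mannoproteins 5 were higher and 3 lower (median 0.23). PIR1 had 181, 195 and 176 CPM in Sc12+Trp+IB, against 54.0, 59.9 and 53.6 CPM in Sc12+Trp (log2 fold change 1.72 ± 0.15, adjusted p = 5.16e-10), and CWP1 rose by 1.63 with replicate 2 as its highest library. TIP1 fell by 1.76 and CIS3 by 1.35. Of 26 ergosterol genes, 4 were higher and 1 lower (median 0.59), with ERG24 at 1.43, ERG10 at 1.15 (0.98 on FPKM) and UPC2, an activator of this pathway, at 1.24. FAS2, the alpha subunit of fatty acid synthase, rose by 1.52, and ACC1, which supplies its malonyl-CoA, was at 0.76 and not called. INO1, inositol phosphate synthase, rose by 1.33. POT1, the thiolase of beta-oxidation, fell by 1.75.

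Iron genes were called in part, 5 of 24 higher and 1 lower (median -0.04). These are 20.8% and 4.17%, against 9.93% and 8.02% of all tested loci. FIT1, a wall mannoprotein that holds siderophores, had 186, 210.3 and 157 CPM in Sc12+Trp+IB, against 43.5, 43.5 and 40.8 CPM in Sc12+Trp (log2 fold change 2.11 ± 0.15, adjusted p = 4.77e-11), and FIT2 rose by 1.58. TIS11, which destabilises mRNAs of iron-using proteins, and HMX1, heme oxygenase, rose by 1.76 and 1.58. The transporters FET3, FTR1 and SIT1 were at -0.61, 0.02 and -0.75, and ENB1, the enterobactin transporter, fell by 1.28. ZRT1, the high-affinity zinc transporter, fell by 1.85. The exporter PDR15/YDR406W-A rose by 1.61 and PDR12, the exporter of weak acids, fell by 1.31, and among 32 proteasome genes 1 was higher and 2 lower. Of 16 alcohol and aldehyde dehydrogenases 2 were higher and 2 lower (12.5% each), with ADH5 at 1.29 (0.86 on FPKM) and ALD3 at -1.37. Of 17 thiamine genes none were higher and 2 lower, among them the transporter THI7 at -1.29. Of 24 genes of oxidative stress defence 1 was higher, glutathione reductase GLR1 at 1.19, and 2 lower. Of 21 autophagy and vacuolar protease genes 2 were higher, with YPS6 at 1.77, and 3 lower. In each of the 15 lists not counted above, among them vitamin B6, trehalose and glycogen, and phosphate starvation, 0 to 3 genes were higher and 0 to 2 lower.

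**Figure D4:**
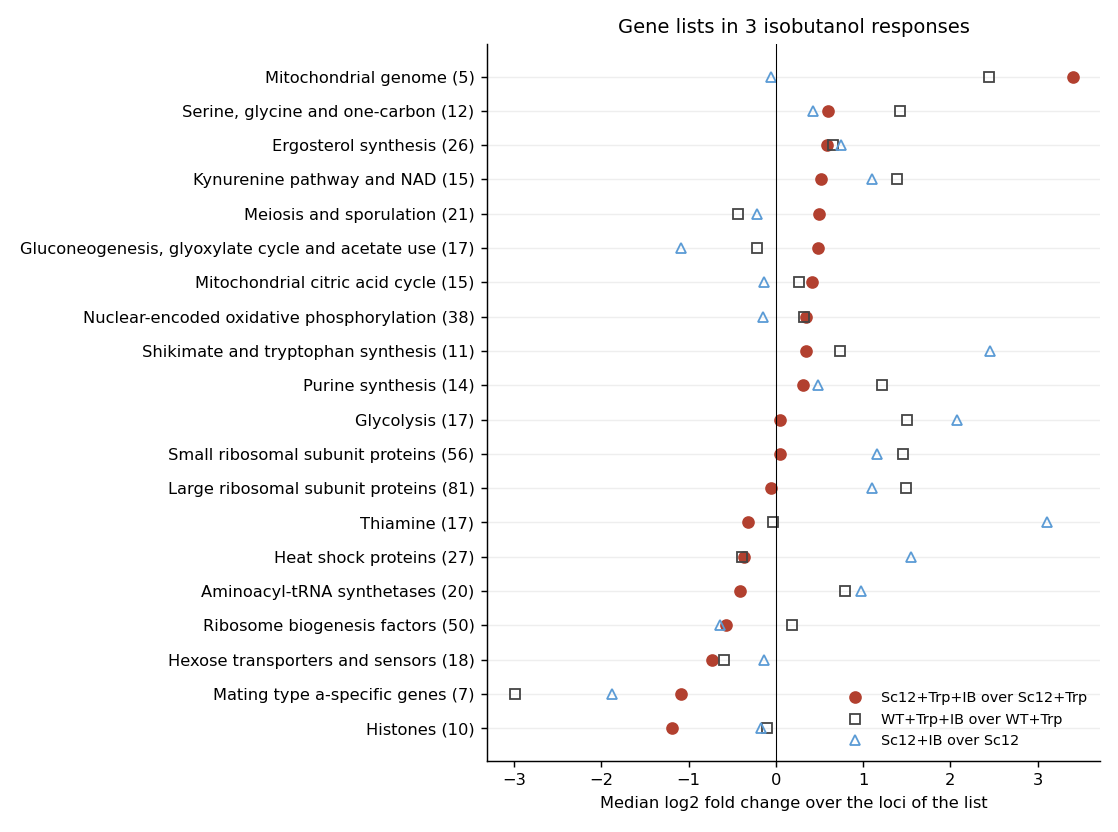
Median log2 fold change over the tested loci of 20 gene lists (number of loci in parentheses) in 3 isobutanol responses, Sc12+Trp+IB over Sc12+Trp (red circles), WT+Trp+IB over WT+Trp (squares) and Sc12+IB over Sc12 (triangles). In tryptophan-fed Sc12 the medians run from -1.19 for histones to 3.40 for the mitochondrial genome, of whose 8 listed genes 5 passed the filter on low values. Glycolysis and the ribosomal proteins lie near 0 there and above 1 in both other responses.

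The same exposure was set against that of tryptophan-fed WT, in which isobutanol gave 708 loci higher (11.2%) and 543 lower (8.56%). Of the 630 loci called higher in Sc12, 191 were also higher in WT, which is 30.3% of the Sc12 calls and 27.0% of the WT calls, and 18 were lower. Of the 509 called lower in Sc12, 151 were also lower in WT (29.7% and 27.8%) and 14 higher. The difference between the responses was tested as a strain interaction, Sc12 minus WT. It was called in 702 loci as higher in Sc12 (11.1%) and in 736 as lower (11.6%), 22.7% in all, and on FPKM in 534 and 282, where the median of all loci was 0.16.

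SPG1, required for survival at high temperature in stationary phase, had the largest positive interaction among single-gene loci of at least 10 CPM (interaction 4.13 ± 0.27, adjusted p = 6.06e-11), with changes of 1.09 in Sc12 and -3.04 in WT. Its value in Sc12 was 0.97 without Sc12+Trp+IB replicate 2 and 0.73 on FPKM. CIT3 changed by 2.51 in Sc12 and -0.42 in WT (interaction 2.93 ± 0.22, adjusted p = 3.63e-10). Mean CIT3 was 259 CPM in WT+Trp and 193 CPM in WT+Trp+IB, against 84.3 CPM in Sc12+Trp and 481 CPM in Sc12+Trp+IB. FIG1, of the mating response, was at 0.83 in Sc12 and -2.36 in WT (interaction 3.19 ± 0.29, adjusted p = 4.73e-09). Mean FIG1 was 41.3 CPM in WT+Trp and 8.0 CPM in WT+Trp+IB, against 5.71 CPM in Sc12+Trp and 10.4 CPM in Sc12+Trp+IB. FIG1 thus differed between the strains mainly in the libraries without isobutanol. On the negative side, YJL218W, a putative acetyltransferase, was at -0.98 in Sc12 and 3.71 in WT (interaction -4.69 ± 0.46, adjusted p = 1.24e-08), and LSR1 at -3.58 and -0.18 (interaction -3.40 ± 0.26, adjusted p = 3.19e-10). LSR1 had 127, 173 and 197 CPM in Sc12+Trp+IB, against 1487, 2221 and 2218 CPM in Sc12+Trp. In WT it had 143, 111 and 168 CPM in WT+Trp+IB, against 152, 177 and 148 CPM in WT+Trp. The strains thus differed in LSR1 mainly in the libraries without isobutanol.

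Several lists held many calls in this interaction, for which the background is 11.1% higher and 11.6% lower. Of 81 large and 56 small subunit ribosomal protein loci, 59 and 46 were lower in Sc12 and none higher: in WT 60 and 42 of them were called higher, with medians of 1.49 and 1.46. Ribosome biogenesis factors gave 21 lower and none higher of 50, and in WT 2 higher and none lower. Glycolysis gave 11 lower of 17, and purine synthesis 10 lower of 14. Meiosis genes gave 10 higher and 1 lower of 21, against 2 higher and 3 lower in WT alone. All 7 a-specific genes were higher in the interaction, with each called lower in WT (median -2.99) and 4 in Sc12 (median -1.09). Their sum was 169 to 230.4 CPM in WT+Trp+IB, against 1525 to 2055 CPM in WT+Trp. Of the 5 tested protein-coding loci of the mitochondrial genome, 1 was higher in the interaction. In WT 4 of them were called higher (median 2.44) and in Sc12 all 5 (median 3.40). The kynurenine list gave 1 higher and 2 lower of 15, with 9 higher in WT alone. BNA2/YJR079W changed by 2.28 in WT and BNA6 by 2.78, beside the 3.16 and 3.09 of Sc12. BNA5 was at 1.82 in WT and 1.87 in Sc12. The other way went BNA1 (3.20 in WT and 2.92 in Sc12), BNA4 (2.94 and 2.36) and BNA7 (1.05 and 0.52). The list median was 1.39 in WT and 0.52 in Sc12.

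What tryptophan feeding added was tested in Sc12 as the response with tryptophan minus that without. The 2 responses shared no libraries, and each is given with its own values. Without tryptophan, isobutanol gave 1094 loci higher (17.2%) and 670 lower (10.6%). Of the loci called with tryptophan, 262 of the higher ones (41.6% of these and 23.9% of those without tryptophan) and 218 of the lower ones (42.8% and 32.5%) were called the same way without it, and 11 and 45 the opposite way. The interaction was called in 525 loci as higher (8.27%) and in 966 as lower (15.2%), 23.5% in all. This split depends on the scaling: with library totals in place of TMM factors it was 2370 higher and 444 lower, and the median interaction of all loci moved to 0.78. On FPKM it was 545 higher and 577 lower, with a median of 0.25.

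Genes of amino acid and vitamin synthesis were among the negative interactions. All 24 sulfur genes were higher without tryptophan (median 3.27), and 21 of them were lower in the interaction. Arginine gave 10 lower of 10, thiamine 15 of 17 and shikimate and tryptophan synthesis 8 of 11. ALD5, a mitochondrial aldehyde dehydrogenase, was at 0.43 with tryptophan and 7.93 without (interaction -7.50 ± 0.22, adjusted p = 5.27e-18). MET16, of sulfate reduction, was at -0.49 and 5.00 (interaction -5.49 ± 0.16, adjusted p = 5.27e-18), and UGA4, the GABA permease, at -0.99 and 4.60 (interaction -5.59 ± 0.28, adjusted p = 4.11e-14). Among single-gene loci of at least 10 CPM, the largest positive interactions were those of the mitochondrial rRNAs, 15S_RRNA (2.43 with tryptophan, -1.81 without) and 21S_RRNA (1.70 and -1.91). Both also differed between the groups without isobutanol. Mean 15S_RRNA was 72.7 CPM in Sc12 and 15.4 CPM in Sc12+Trp, with 20.4 CPM in Sc12+IB and 80.5 CPM in Sc12+Trp+IB. For 21S_RRNA the means of these groups were 203, 76.1, 53.9 and 245 CPM. COX3 (3.87), COB (3.47), OLI1 (3.46) and COX2 (3.28), at lower levels, also had called interactions. Mean levels of COB, COX2 and COX3 differed as well between the groups without isobutanol, on few fragments. They were 3.30, 1.26 and 0.56 CPM in Sc12, against 0.89, 0.49 and 0.11 CPM in Sc12+Trp. The rRNAs were followed at 10 CPM and above by PCK1 (1.75 and -1.26, interaction 3.02 ± 0.22, adjusted p = 3.07e-11) and IDP2 (1.60 and -1.40, interaction 3.00 ± 0.18, adjusted p = 1.25e-12). Gluconeogenesis gave 12 higher and 1 lower of 17 and meiosis 9 higher of 21. Heat shock genes gave 17 lower of 27 and glycolysis 14 lower of 17. The kynurenine list gave 1 higher and 5 lower of 15, with BNA2/YJR079W at 1.61 and BNA6 at 3.27 without tryptophan. BNA1, BNA4, BNA5 and BNA7 were at 5.12, 3.11, 1.10 and 0.47 without tryptophan, beside 2.92, 2.36, 1.87 and 0.52 with it.

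The called loci also differed in base composition, which the choice of loci did not use. Over 5723 loci with a coding sequence, the median adenine content was 30.7% in loci called higher, 33.7% in those called lower and 32.8% in those not called. The median coding lengths of these classes were 906, 1401 and 1218 bases. In the lowest of 5 equal groups by adenine content (15.4 to 29.3%), 15.7% were called higher and 6.45% lower, and in the highest (35.5 to 47.4%) 4.72% were higher and 11.2% lower. In tryptophan-fed WT 18.7% of the lowest group were higher and 11.0% lower, and of the highest group 7.16% and 6.38%. For Sc12 without tryptophan these shares were 28.8% and 7.40%, and 8.91% and 13.5%. Spearman's rho between adenine content and log2 fold change was -0.24 across loci, -0.21 with the authors' FPKM, -0.09 in tryptophan-fed WT and -0.26 in Sc12 without tryptophan. For coding length it was -0.18, -0.09 with the authors' FPKM, -0.18 in tryptophan-fed WT and -0.16 in Sc12 without tryptophan. These loci share the same 6 libraries, so the values describe them and are not a test, and the part of length or of RNA quality was not tested.

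**Figure D5:**
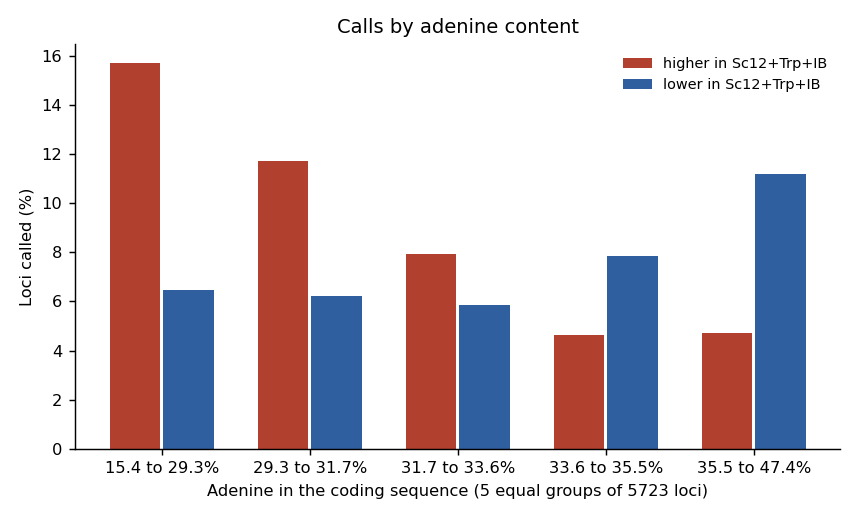
Share of loci called (%) in 5 equal groups of 5723 loci ordered by adenine content of the coding sequence, higher in Sc12+Trp+IB in red and lower in blue. The share called higher is 15.7% in the group with the least adenine and 4.72% in that with the most, and the share called lower 6.45% and 11.2%.

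Runs of purines went with this. The most purine-rich 50 bases of each coding sequence were taken, and of the 181 loci whose run exceeded 86% purine, 16.0% were called lower and 3.87% higher, against 6.27% and 14.3% of the 1802 at or below 70%. Of the same 181 loci, 14.4% were lower and 8.84% higher in Sc12+IB against Sc12. In WT+Trp+IB against WT+Trp the shares were 4.42% and 9.39%. Longer coding sequences offer more such windows, and the part of length was not tested. The runs below come from a fallen and a risen gene, with purines in capitals, on the coding strand of RefSeq R64. They are the most and the least purine-rich of the runs read out. The others were 84% in UTP14 and 80% in MAK5, which fell, and 74% in SPS1, which rose. FUN12 encodes the translation initiation factor eIF5B.
FUN12, chrI:76697-76746, plus strand, 98% purine, log2 fold change -2.09: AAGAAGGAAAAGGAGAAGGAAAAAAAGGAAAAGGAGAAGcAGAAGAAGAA
BNA6, chrVI:244521-244570, minus strand, 68% purine, log2 fold change 3.09: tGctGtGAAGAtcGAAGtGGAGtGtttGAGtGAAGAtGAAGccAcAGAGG
Of the promoter elements listed for stress and amino acid control, AGGGG, read by Msn2 and Msn4, stood in 24.2% of promoters of loci called higher, 20.5% of those called lower and 22.4% of all. TGACTCA, read by Gcn4, stood in 3.52%, 3.49% and 2.73%. In Sc12 without tryptophan TGACTCA stood in 8.92% of promoters of loci called higher. AGGGG stood there in 20.7% of promoters of loci called higher and 18.7% of those called lower. In tryptophan-fed WT these shares of AGGGG were 14.6% and 35.8%.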

How the data were processed

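RNA of 24 samples in 8 groups of 3 was extracted with RNeasy and sequenced as TruSeq libraries, single-end, on an Illumina HiSeq instrument. Whether replicates came from separate cultures is not stated, so p-values measure the spread between these samples, which may be technical. According to the submitters' processing notes, the authors used bcl2fastq 2.18, Trimmomatic 0.39, TopHat2 2.1.1 and Cufflinks 2.2.1 with genome build sacCer3. The annotation and the strand setting of the counting are not given in the sources used here. The deposited table holds, for each locus and library, an estimated count of fragments (raw fragments) and the FPKM value that the authors' Cufflinks run scaled between libraries.

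Estimated counts, of which 98.83% lay within 0.001 of a whole number, were rounded and fitted with edgeR 4.0.16 (R 4.3.3) as 8 group means over the 24 libraries, with TMM scaling and the quasi-likelihood test, p-values adjusted by Benjamini-Hochberg over 6346 loci with a mean of at least 1 FPKM. The biological coefficient of variation was 10.4%, with 16 residual degrees of freedom. A call needs an absolute log2 fold change above 1 and an adjusted p below 0.05. CPM are fragments per 1000000 of the TMM-scaled library. The steps were tested on simulated data. Differences between responses were interaction contrasts of the same fit. FPKM values were used for the filter and with limma 3.58.1. Alternatives were library totals, RLE factors, no filter, at least 10 FPKM, the adjusted p alone, a replicate block, only the libraries compared, limma on log2(FPKM + 1) and log2(FPKM + 0.1), DESeq2 1.42.0, and each library left out in turn.

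Members and gene lists were chosen with earlier results of these data known. Named genes are the 12 largest rises and 12 largest falls among called single-gene loci of at least 10 CPM whose groups do not overlap, the 5 largest interactions each way, up to 4 calls per list, and genes the study names, and 1 of the largest falls is not reported here. Other list members are named for their role, and RRP5, NOG2 and FUN12 were chosen after their values were seen. Of 7048 systematic names 5999 matched a RefSeq entry. In 102 loci several genes are merged, and 900 of the tested loci overlap another. Pairing of replicate numbers was checked by the correlation of deviations from group means. The correlation was -0.03, -0.08 and -0.02 for the 3 same-numbered pairs of Sc12+Trp+IB and Sc12+Trp. No effect shared by same-numbered libraries was seen, which cannot show that samples were not handled in pairs. The fit used no pairing.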

Additional observations from a re-analysis of the deposited data

Results flagged for a closer look

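The difference between the isobutanol responses of tryptophan-fed Sc12 and tryptophan-fed WT was tested locus by locus, and 702 loci responded more positively and 736 more negatively in Sc12. Among single-gene loci of at least 10 CPM, the 5 largest positive differences were those of SPG1 at 4.13, YOR186W at 3.36, FIG1 at 3.19, YKL097C at 3.03 and CIT3 at 2.93 on the log2 scale. The 5 largest negative ones were YJL218W at -4.69, YAL037C-B at -3.78, YKL153W at -3.45, LSR1 at -3.40 and YBL077W at -3.17. Mean levels without isobutanol differed between WT+Trp and Sc12+Trp for FIG1 (41.3 and 5.71 CPM), CIT3 (259 and 84.3 CPM) and LSR1 (159 and 1975 CPM). This enters their values. YOR186W, YAL037C-B, YKL153W and YBL077W each overlap another locus (YOR186C-A, CDC19, GPM1 and ILS1), and fragments of the partners cannot be told apart.

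The difference between the responses of Sc12 with and without tryptophan was tested in the same way, and 525 loci were more positive and 966 more negative with tryptophan. By the same limits the largest positive differences were 15S_RRNA at 4.24, 21S_RRNA at 3.61, PCK1 at 3.02, IDP2 at 3.00 and RRT5 at 2.99. Mean levels of both rRNAs without isobutanol were higher in Sc12 than in Sc12+Trp, which enters their values. The largest negative ones were ALD5 at -7.50, THI73 at -6.76, IRC7 at -5.81, UGA4 at -5.59 and MET16 at -5.49. IRC7 overlaps YFR056C.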

How the results depend on the processing

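The counts of loci called higher and lower with isobutanol were within 1.5 times the reported 630 and 509 under library totals, RLE factors, no filter, at least 10 FPKM, only the 6 libraries compared and DESeq2. With each of the 6 libraries left out they ran from 611 to 664 higher and from 499 to 559 lower. For the strain interaction the same ranges over 12 libraries were 665 to 741 and 659 to 782, and for the tryptophan interaction 503 to 557 and 928 to 993. Without the fold threshold, 2237 loci were higher and 2162 lower, 1954 and 2002 for the strain interaction and 1860 and 1912 for the tryptophan interaction, since that rule also admits small differences. With limma on log2(FPKM + 1) the lower counts were 316, 282 and 577 for the comparison, the strain interaction and the tryptophan interaction, and on log2(FPKM + 0.1) 335, 285 and 569. The cause was not tested. Under library totals the tryptophan interaction gave 2370 higher and 444 lower, with the median of all loci at 0.78. No effect shared by same-numbered libraries was seen. A fit with the replicate number as a block gave 633 and 508 calls. It gave 700 and 731 for the strain interaction and 519 and 967 for the tryptophan interaction.

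Over 267 genes and 3999 values under the alternatives, 3810 kept direction and side of the threshold, 170 of 64 genes lost the call, 19 of 5 genes gained it and 0 of the called values changed sign. Limits are the 3 samples per group from 1 deletion strain, 1 time, 1 dose, and make-up libraries (Sc12+Trp replicate 1 and Sc12 replicate 3). Without the Sc12+Trp one 583 of the 630 higher and 479 of the 509 lower loci were called again, and without the Sc12 one the tryptophan interaction gave 510 and 953 calls. Levels are shares of the RNA of a library, not amounts per cell. The paper measured cell density at harvest, and those values were not used here. Any difference in growth phase or density at 24 h cannot be told apart from isobutanol itself. Mitochondrial mRNAs rest on few fragments, and near-identical or overlapping genes share fragments.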
